A study of Homo sapiens with 30 samples.

Results

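The replication-dependent histone genes encode the bulk histones that package newly made DNA. They were taken by symbol as all rows of both deposited expression tables named H1-1 to H1-6 or with the prefixes H2AC, H2BC, H3C and H4C followed by a number, which gave 69 of the 61471 rows in each table. Of the 69 genes, 6 encode linker histone H1, 17 encode H2A, 18 encode H2B, 13 encode H3 and 15 encode H4, and 55 lie on chromosome 6, 13 on chromosome 1 and 1 on chromosome 12. They were measured by RNA sequencing in U87-MG and U251-MG, established human glioblastoma lines labelled as wild type. Each line had 5 groups: Untreated cells, cells kept with the cytokine interferon-γ (IFN-γ) up to day 3 (D3), day 14 (D14) or day 28 (D28), and cells given IFN-γ up to day 14 that then went 14 days in its absence (D28WO). The labels give 1 μg/mL for the dose and day 3 for the collection of the Untreated cells, and the methods of the study differ from the labels on both points. Each group had 3 libraries, labelled as biological replicates and described in the methods as separate culture preparations of 1 line per model. A pair of U87 columns with the same name could not be told apart and was not used, so U87 D3 and D14 are represented by replicates 2 and 3 only (n = 2) and 28 of the 30 libraries entered the analysis.

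Most replication-dependent histone genes have no introns, are transcribed mainly during DNA replication and lie in clusters from which NPAT, a coactivator bound at these loci, drives transcription. Their mRNAs end in a short stem-loop in place of a poly(A) tail. The stem-loop is bound by SLBP, the stem-loop binding protein, and the U7 particle directs cleavage just downstream of it, so the mRNAs accumulate in S phase and are destroyed when replication stops. Some of the genes also have annotated transcripts that run past the stem-loop and can be polyadenylated. Glioblastoma lines divide in culture, and in dividing cells histone mRNA generally rises with the share of cells in S phase. That share was not measured here. In bulk samples, fewer cells in S phase and less histone RNA per cell cannot be told apart.

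The stem-loops are shown because they are the 3′ end signal that most of these genes share. In the GRCh38 reference with GENCODE 44 annotation, 64 of the 69 genes have a stem of 6 base pairs with a loop of 4 bases within 200 bases after the stop codon, in 5 different forms. The form with the loop TTTC and a GGCTCT stem occurs in 40 genes of the H1, H2A, H2B and H3 classes, the GGCCCT stem with the loop TTTC in 10 H4 genes, GGCTCT with TTTA in 9 genes, GGCCCT with TTTT in 4 H4 genes and GGCTCT with TTTT in H2AC20 alone. No such hairpin was found in that window for H2AC11, H2AC15, H2BC10, H3C6 and H4C13. The windows below are read 5′ to 3′ on the gene's strand, each lies after the stop codon, and the capitals mark both arms of the stem.
H1-2 (chr6:26055739-26055764, minus strand): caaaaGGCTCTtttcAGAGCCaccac
H2AC6 (chr6:26124664-26124689, plus strand): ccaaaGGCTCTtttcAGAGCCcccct
H2AC18 (chr1:149842218-149842243, minus strand): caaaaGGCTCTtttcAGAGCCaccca
H2AC19 (chr1:149851569-149851594, plus strand): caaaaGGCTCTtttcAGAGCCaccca
H2BC4 (chr6:26123467-26123492, minus strand): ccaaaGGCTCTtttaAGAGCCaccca
H2BC21 (chr1:149886183-149886208, minus strand): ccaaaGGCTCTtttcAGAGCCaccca
H4C8 (chr6:26285126-26285151, minus strand): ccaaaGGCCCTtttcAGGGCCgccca
H4C14 (chr1:149833027-149833052, plus strand): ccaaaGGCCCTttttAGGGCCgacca

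Annotated transcripts also divide the genes. For 17 of them, called extended here, at least 1 GENCODE transcript ends more than 300 bases past the compact end, and the other 52 are called compact. None of the H1 genes is extended, against 3 of 17 H2A, 8 of 18 H2B, 2 of 13 H3 and 4 of 15 H4 genes. H2BC21 (chr1:149884459-149886682) is annotated only as a transcript of 2224 bases that ends 1729 bases past its stem-loop, whereas H2AC6 (chr6:26124145-26139116), H2BC4 (chr6:26086317-26123926) and H4C8 (chr6:26277609-26285638) each have a compact canonical transcript and 2 extended ones. The library kit is named in the labels, but whether poly(A) RNA was selected is not given in the sources used here. How fully the values below count mRNAs without a poly(A) tail is therefore unknown.

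By their canonical transcripts H2AC6 and H2BC4 start 246 bases apart on opposite strands, 1 of 13 such divergent pairs among the genes. An extended H2AC6 transcript is annotated from position 26124145, inside this stretch. The 245 bases between the canonical starts (chr6:26123927-26124171, GRCh38, written on the strand of H2AC6) are shown because both genes rose together in U87 at D3 and D28. Capitals mark the CCAAT box, a common element of histone promoters, on either strand (3 matches) and the TATAAA box (1 match, 26 bases before the canonical H2AC6 start).
H2BC4 to H2AC6: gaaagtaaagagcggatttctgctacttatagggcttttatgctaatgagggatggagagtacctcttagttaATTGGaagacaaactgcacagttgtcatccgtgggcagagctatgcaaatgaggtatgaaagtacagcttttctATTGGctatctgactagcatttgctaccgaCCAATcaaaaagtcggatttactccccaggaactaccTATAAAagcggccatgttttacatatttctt
Over all genes, 64 members have a RefSeq promoter window (GRCh38.p14, 250 bases before to 50 after the start), and both strands were searched. CCAAT occurred in 54 of the 64 windows (84.4%), against 39.7% of 27305 promoters, and TATAAA in 43 (67.2%), against 14.0%. CACGTG occurred in none (against 8.77%). A match describes letters in the window and no bound factor.

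Values are TPM, transcript abundances scaled for transcript length and for the library total, which keep no library depth, so the counting error behind low values is unknown. U87 and U251 were normalized separately and were never tested against each other. VIM, a mesenchymal and glial filament gene, stood at 984 to 1459 TPM in U87 and 599 to 1161 TPM in U251. The astrocyte filament gene GFAP was at 1219 to 1309 TPM in Untreated U251 and lower in every treated U251 library, but at most 19.1 TPM in U87, where the neural stem cell factor SOX2 was also near 0. Of 6 markers of other cell types, the leukocyte genes PTPRC and CD3E reached at most 1.5 TPM and the endothelial gene PECAM1 2.4 TPM, the epithelial gene EPCAM 9.3 TPM and the hepatocyte gene ALB 23.2 TPM. ALB was higher than in every Untreated library in all U87 D3, D28 and D28WO libraries (0.587 to 6.65 TPM, against at most 0.351 TPM) and in all U251 D3 and D28 libraries (4.88 to 23.2 TPM, against at most 3.81 TPM). CD68, a lysosomal gene used as a macrophage marker, stood at 214 to 445 TPM in U87 and 76.8 to 168 TPM in U251, and lay below every Untreated library in all U87 D3, D14 and D28WO and all U251 D14 and D28WO libraries. EPCAM was also lower in U87 D28WO (1.03 to 1.38 TPM, against 3.14 to 9.29 TPM), and PTPRC and PECAM1 were higher in U251 D28. Among the glioblastoma genes, GFAP was higher in all U87 D3, D28 and D28WO libraries (7.9 to 19.1 TPM, against 2.33 to 6.9 TPM). OLIG2 was higher in U87 D28WO (22.0 to 32.0 TPM, against 4.94 to 9.49 TPM) and in U251 D3, D14 and D28 (at most 1.33 TPM). CD44 was below Untreated in every treated library of both lines. NES was below it in every treated U251 library and in U87 D14 and D28WO. VIM was below every Untreated library in all U87 D3 and D28WO and all U251 D3, D28 and D28WO libraries. SOX2 in U251 was lower at D3, D14 and D28 and higher in D28WO. The part of these genes in the results was not tested. IRF1, a direct target of IFN-γ signalling, checked the exposure labels. In U251 every treated library held more IRF1 than every Untreated one (137 to 145 TPM), with 514 to 721 TPM in D3, 287 to 321 TPM in D14, 559 to 674 TPM in D28 and 588 to 663 TPM in D28WO. In U87, IRF1 was 136, 130 and 134 TPM in Untreated, 445 and 450 TPM in D3, 134 and 110 TPM in D14, 539, 457 and 443 TPM in D28 and 527, 545 and 457 TPM in D28WO. The U87 libraries labelled D14 thus lay at the Untreated level although labelled as exposed, and those labelled D28WO lay at the D28 level in both lines although labelled as kept without IFN-γ. The cause was not tested, and every U87 D14 value and every D28WO value of either line below refers to the libraries so labelled.

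Few genes made up most of the histone RNA. The 10 highest genes held 65.0% of the summed TPM of the 69 in U87 and 70.8% in U251, with H1-2, H2AC6, H2AC18, H2AC19, H2BC5, H2BC12, H2AC25 and H4C14 in both sets of 10. H2BC1, H4C7 and H4C11 were listed at 0 in every library of both lines, and H4C6 in every U87 library. After a filter at a mean of 0.5 TPM, 61 genes were tested in U87 and 56 in U251.

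Every treated group, D28WO included, held more summed histone RNA in TPM than the Untreated cells. In U87 the sum over the 69 genes was 408, 430 and 338 TPM in Untreated, 665 and 768 TPM in D3, 553 and 535 TPM in D14, 635, 704 and 668 TPM in D28, and 506, 530 and 523 TPM in D28WO. All treated U87 libraries lay above all Untreated ones, with ratios of group means of 1.83 (D3), 1.39 (D14), 1.71 (D28) and 1.33 (D28WO). In U251 the sum was 570, 572 and 520 TPM in Untreated, 799, 780 and 851 TPM in D3, 1062, 1046 and 1062 TPM in D14, 1136, 1157 and 1135 TPM in D28, and 855, 920 and 866 TPM in D28WO. All treated U251 libraries again lay above all Untreated ones, with ratios of 1.46, 1.91, 2.06 and 1.59 in the same order. The highest sums thus stood at D3 in U87 and at D28 in U251, and the U87 D3 and D28 ranges overlap. The U87 ratios were smaller in every treated group under quantile or median-ratio scaling. Under quantile normalization the excess in U87 D28WO all but vanished, as given in the last section. A sum rests on a few abundant genes and carries no test here.

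By class, the ratio of group means to Untreated in U87 at D3 was 1.45 for H1, 1.91 for H2A, 1.87 for H2B, 1.32 for H3 and 2.24 for H4, and in U251 at D14 it was 1.96, 1.51, 2.23, 2.78 and 2.25. H2A and H4 lay above every Untreated library in all 4 treated groups of both lines. H1 and H3 in U251 at D3 overlapped Untreated, as did H3 in U87 at D3, D28 and D28WO and H2B in U87 D28WO. The H3 ratio in U87 turned below 1 under quantile normalization at D3 and D28, and the H1 ratio in U87 rests on H1-2: without it the other H1 genes were lower than Untreated at D3, D28 and D28WO (log2 ratios of -0.33, -0.49 and -0.84).

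**Figure D1:**
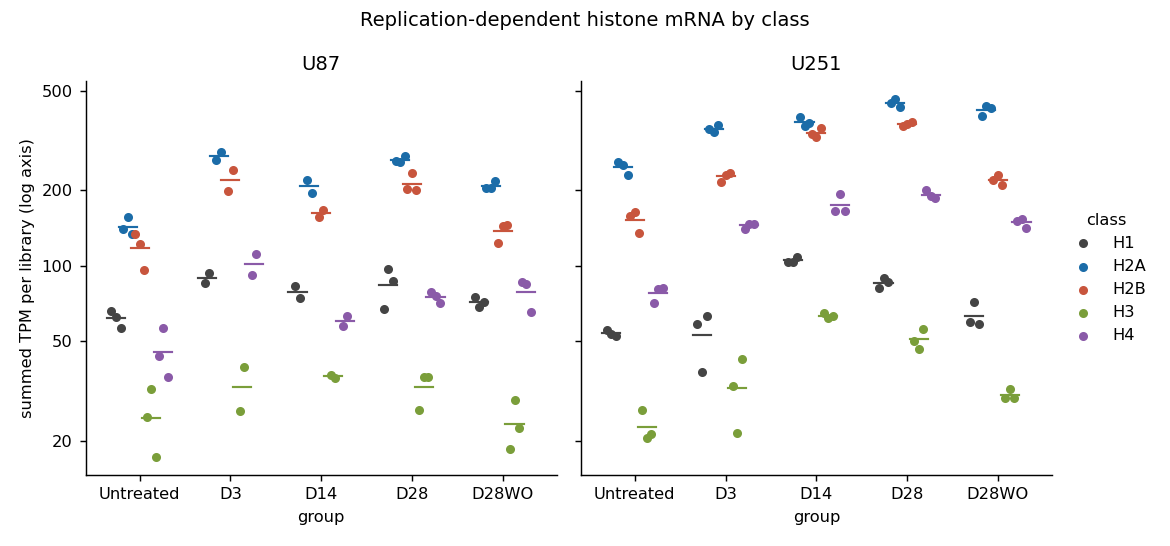
Summed TPM of the H1, H2A, H2B, H3 and H4 genes in each library of U87 (left) and U251 (right) by group, on a log axis; points are libraries and bars are group means. H2A and H2B held the most RNA in every group, and the U251 H3 sum stood at 61.8 to 65.0 TPM in D14 against 20.4 to 26.4 TPM in Untreated.

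Across all genes, limma on log2(TPM + 1) called a gene changed at an adjusted p under 0.05 with a log2 fold change beyond 1 either way, and log2 fold changes below are on that scale. In U87 at D3, 7 of the 61 tested histone genes rose (11.5%) and none fell, against 5.85% of all genes tested that rose and 0.384% that fell. At D14, 2 rose, and none fell, against 1.89% and 0.209% of all genes. At D28, 10 rose and none fell, against 6.77% and 0.611%. In D28WO, 6 rose and 2 fell, against 12.8% and 2.12%. The share of histone genes called higher was therefore above the background at D3, D14 and D28 and below it in D28WO, where D14 rests on 2 genes. The median log2 fold change was 0.72 over the tested histone genes and 0.20 over all genes at D3, 0.45 and 0.15 at D14, 0.50 and 0.19 at D28, and -0.02 and 0.25 in D28WO.

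By adjusted p alone, without the fold threshold, 9 histone genes were higher and none lower in U87 at D3 (12.4% and 4.28% of all genes), 4 and 0 at D14 (4.14% and 1.02%), 14 and 0 at D28 (17.2% and 6.55%) and 9 and 3 in D28WO (28.6% and 13.4%). It was 0 and 3 from D3 to D14 (1.47% and 3.32%), 3 and 0 from D14 to D28 (2.94% and 1.12%) and 0 and 9 from D28 to D28WO (9.9% and 8.44%). In U251 it was 12 and 1 at D3 (24.9% and 16%), 28 and 1 at D14 (13.8% and 7.31%), 27 and 0 at D28 (25.9% and 14.7%) and 12 and 0 in D28WO (14.3% and 13.4%). Between treated groups of U251 it was 15 and 2 from D3 to D14 (12.8% and 12.6%), 6 and 1 from D14 to D28 (11.3% and 9.48%) and 1 and 14 from D28 to D28WO (10.3% and 18.8%). By this rule, too, U251 D14 stood furthest above the background.

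The U87 counts depended on scaling and on single libraries. Quantile normalization moved the median of all genes to between -0.03 and -0.01 in these 4 comparisons and left 4 up and 1 down at D3 (2.37% and 1.22% of all genes under the same scaling), 4 up and 1 down at D28 (2.89% and 1.7%), and 2 up and 11 down in D28WO (5.81% and 5.35%). Median-ratio scaling gave 5 up and 1 down at D3 (4.33% and 0.733% of all genes) and 3 up and 5 down in D28WO (9.5% and 3.85%). Leaving out D3 replicate 2 gave a D3 count of 4, and leaving out D3 replicate 3 gave 2. The D28 count of 10 dropped to 6 when Untreated replicate 1 or D28 replicate 3 was left out and to 5 when Untreated replicate 3 or D28 replicate 2 was. In D28WO it was 5 without Untreated replicate 1 or D28WO replicate 1, and at D14 it was 4 without Untreated replicate 2 and 0 without either D14 library. Between the treated groups of U87, 3 genes fell from D3 to D14 and none rose, against 2.05% and 0.576% of all genes, and 2 rose from D14 to D28 and none fell, against 1.78% and 0.332%. The first count was 1 without D3 replicate 3, and the second 1 without D14 replicate 2 or D28 replicate 3 and 0 without D14 replicate 3.

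In U251 the histone genes rose most often at D14. At D3, 7 of the 56 tested genes rose and 1 fell, against 9.72% and 4.55% of all genes. At D14, 24 rose (42.9%) and 1 fell, against 4.72% and 1.04%. At D28, 20 rose (35.7%) and none fell, against 11.9% and 3.35%. In D28WO, 6 rose and none fell, against 4.07% and 3.38%. The median log2 fold change over the tested histone genes was 0.36, 1.16, 0.92 and 0.47, against 0.13, 0.10, 0.16 and 0.02 over all genes, and 54 of 56 histone genes had a positive fold change at D14. In the same comparison, each class had members that rose: 2 of 4 tested H1, 5 of 14 H2A, 10 of 15 H2B, 4 of 12 H3 and 3 of 11 H4 genes. Quantile normalization left 20 up and 1 down at D14 (2.82% and 1.72% of all genes under that scaling) but 11 up at D28 (6.63%), and 3 up and 1 down in D28WO (3.76% and 3.62%). The D28WO count was 10 without Untreated replicate 1 and 3 without D28WO replicate 3. From D3 to D14, 13 U251 histone genes rose and none fell, against 3.19% of all genes that rose and 3.29% that fell, and 8 did so without D14 replicate 3. From D14 to D28, 1 rose and 1 fell, against 4.23% and 1.6%. This count of 2 was 1 without D14 replicate 2 or 3. The gene that rose was H2AC18, whose coding sequence is identical to that of H2AC19. Their sum was not called (0.22 ± 0.09, limma adjusted p = 0.114).

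**Figure D2:**
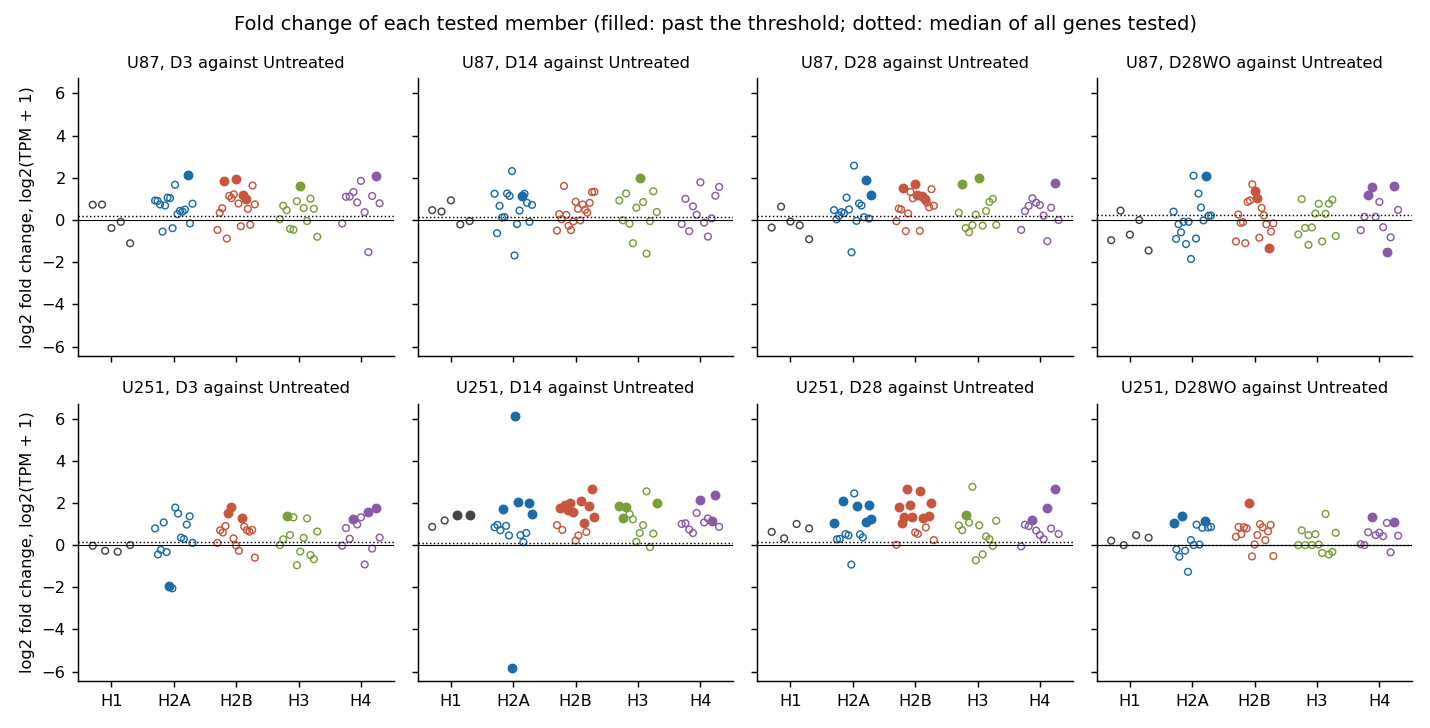
Log2 fold change of each tested histone gene against Untreated, by class, in the 4 treated groups of U87 (top) and U251 (bottom); filled points passed the limma test (adjusted p under 0.05 and log2 fold change beyond 1 either way) and the dotted line is the median of all genes tested. At U251 D14 nearly all points lie above the dotted line, and the pair near 6.12 and -5.84 is H2AC19 and H2AC18, which have identical coding sequence.

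Linker histone H1 binds the DNA between nucleosomes. H1-2, the most abundant H1 gene in both lines, was 48.6, 43.3 and 45.5 TPM in Untreated U87 cells, 76.2 and 77.1 TPM in D3, 65.2 and 56.5 TPM in D14, 57.8, 78.0 and 81.1 TPM in D28 and 66.8, 60.0 and 61.5 TPM in D28WO. All treated U87 libraries lay above the Untreated ones, with log2 fold changes from 0.40 to 0.73. In U251, H1-2 was 51.9, 50.2 and 51.2 TPM in Untreated, 56.2, 36.3 and 61.1 TPM in D3, 93.2, 94.7 and 93.7 TPM in D14, 75.5, 80.9 and 81.7 TPM in D28 and 55.7, 67.2 and 55.7 TPM in D28WO. D14 held the highest values with no overlap with another group and a log2 difference from Untreated of 0.86 ± 0.14 (limma adjusted p = 0.000734, short of the fold threshold), while D3 overlapped Untreated.

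Low H1 genes passed the threshold against Untreated in U251 only, and the lines were not tested against each other. In U251, H1-5 rose at D14, from 0.397, 0 and 0 TPM to 1.37, 2.35 and 2.34 TPM (log2 fold change 1.41 ± 0.31 SE, limma adjusted p = 0.00564), and kept this call without any 1 library. H1-4 rose at U251 D14 by 1.41 ± 0.41 (limma adjusted p = 0.0243), but lost the call without Untreated replicate 2 or 3 or D14 replicate 1 or 3, with values from 1.25 to 1.35. From D3 to D14, H1-3, H1-4 and H1-5 were all called higher in U251. That is 3 of the 4 tested H1 genes, against 3.19% of all genes, and leaves out the abundant H1-2. H1-3 lost that call without D3 replicate 1 or 3 or D14 replicate 3, at 1.16 to 1.32. In U87 no H1 gene passed the threshold in any comparison with Untreated, and H1-5 was 8.48, 7.68 and 2.45 TPM in Untreated against 0.772, 0.838 and 3.31 TPM in D28WO.

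H2A pairs with H2B on the outer faces of the nucleosome, and H2AC6 gave the clearest change of the 69 genes in U87. Its TPM was 14.7, 13.9 and 15 in Untreated, 61.3 and 72.2 in D3, 29.0 and 23.9 in D14, 60.6, 55.0 and 57.0 in D28, and 65.1, 65.9 and 66.6 in D28WO. The Untreated libraries lay below all others, D14 lay between, and D3 and D28WO shared the highest values. H2AC6 rose by 2.12 ± 0.11 at D3 (limma adjusted p = 2.65e-07), by 1.91 ± 0.10 at D28 (1.41e-07) and by 2.11 ± 0.10 in D28WO (4.6e-08), and each call held without any 1 library and under every scaling tried. From D3 to D14 it fell by 1.31 ± 0.12 on the log2 scale (limma adjusted p = 4.52e-05), and from D14 to D28 it was higher by 1.10 ± 0.11 (7.63e-05), or 0.96 without D14 replicate 3. Like IRF1, H2AC6 was lowest in the Untreated and D14 libraries of U87.

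In U251, H2AC6 was the most abundant of the 69 genes. It was at 78.6, 80.6 and 68.3 TPM in Untreated, 152, 151 and 145 TPM in D3, 113, 116 and 111 TPM in D14, 163, 165 and 156 TPM in D28 and 152, 179 and 167 TPM in D28WO. The groups lay in the order Untreated, D14, D3, D28 and D28WO by mean, with D28WO overlapping D28 and lying above every D3 library. H2AC6 passed the threshold at D28 (1.08 ± 0.07, limma adjusted p = 2.84e-08; 0.96 under median-ratio scaling) and in D28WO (1.12 ± 0.07, 3.28e-08).

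**Figure D3:**
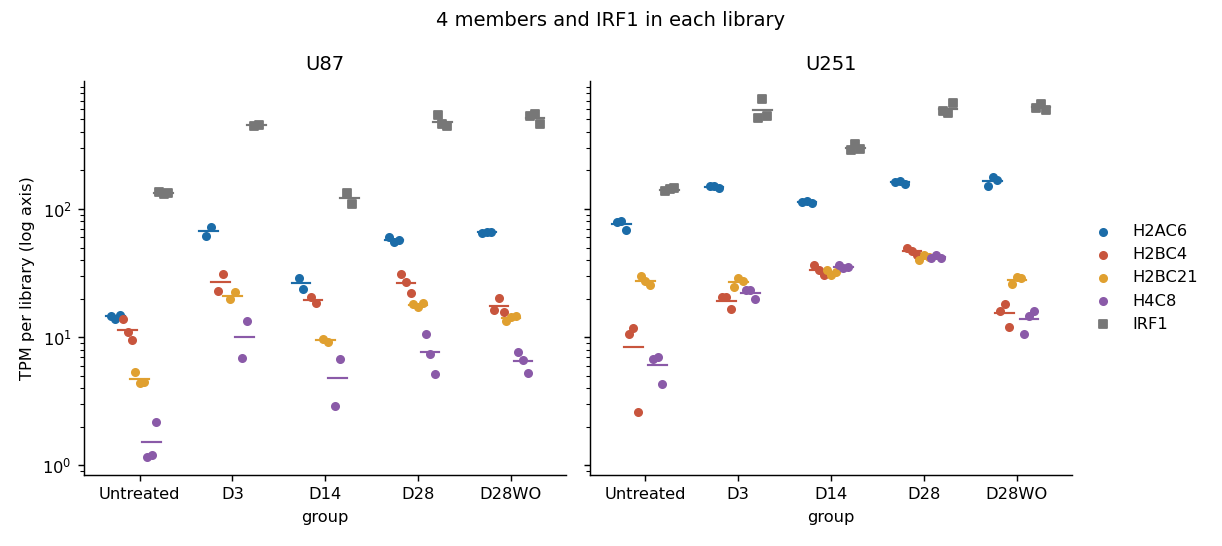
TPM of H2AC6, H2BC4, H2BC21 and H4C8, with the IFN-γ target IRF1 (squares), in each library of U87 (left) and U251 (right), on a log axis; bars are group means. In U87 the D14 libraries of H2AC6 (23.9 and 29.0 TPM) lie between Untreated and D3 while IRF1 is at its Untreated level, and in U251 H4C8 rises from 4.33 to 6.98 TPM to 41.1 to 43.9 TPM at D28.

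H2AC25, an H2A gene on chromosome 1 (chr1:228434777-228457873), was the only H2A gene called in U87 D14. It was 19, 15.9 and 13 TPM in Untreated and 39.6 and 33.3 TPM in D14, a rise of 1.15 ± 0.20 (limma adjusted p = 0.0118) that lost its call without D14 replicate 2 (1.03, adjusted p = 0.113) or 3 (1.27, adjusted p = 0.0641) and fell short of 1 under quantile (0.86) and median-ratio scaling (0.98). In U251, H2AC25 stood at 63.9, 60.3 and 54.8 TPM in Untreated and at 98.5, 111 and 108 TPM in D28WO without passing the fold threshold. H2AC17 fell in U251 at D3, from 5.93, 4.36 and 2.62 TPM to 0, 0 and 1.37 TPM (-1.94 ± 0.47, limma adjusted p = 0.00442), and stood at 6.10, 6.20 and 5.82 TPM at D14. The fall to D3 and the rise from D3 to D14 were both called without any 1 library. Apart from H2AC6 and the copies described next, the H2A genes called in U251 lay under 30 TPM in every library, with H2AC15 rising by 2.08 ± 0.45 at D28 (limma adjusted p = 0.00232).

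H2AC18 and H2AC19 encode the same protein from coding sequences of 390 bases that are identical, and their windows around the stem-loop shown above are also identical. The TPM of the pair fell almost wholly on 1 copy in each library, and which copy it was changed between replicates of 1 group. In Untreated U87 cells H2AC18 was at 71.5, 1.83e-07 and 59.3 TPM while H2AC19 was at 0.56, 68.2 and 0.288 TPM. In U251 all 3 D14 libraries listed H2AC19 (112, 109 and 111 TPM) and all 3 Untreated libraries listed H2AC18 (74.7, 82.3 and 75.3 TPM). The fit then called H2AC19 higher by 6.12 ± 1.49 (limma adjusted p = 0.00982) and H2AC18 lower by -5.84 ± 1.48 (0.0121) at D14. Summed, the pair was 75.3, 82.7 and 76.2 TPM in Untreated and 113, 109 and 111 TPM in D14, a log2 difference of 0.50 ± 0.09 (limma adjusted p = 0.00175), so neither single-copy call describes a change of that size in the RNA of both genes. With all identical copies summed, 23 U251 genes or pairs rose at D14 and none fell. Other identical pairs were H3C14 and H3C15 (408 bases), whose TPM also changed copy between U251 libraries but lay on H3C15 in U87, H4C11 and H4C12 (309), where H4C11 was listed at 0 throughout, and H4C14 and H4C15 (309), where both copies held TPM. Reads cannot be assigned to 1 copy by these coding bases, and H3C14 with H3C15 and H4C14 with H4C15 are given below as sums.

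**Figure D4:**
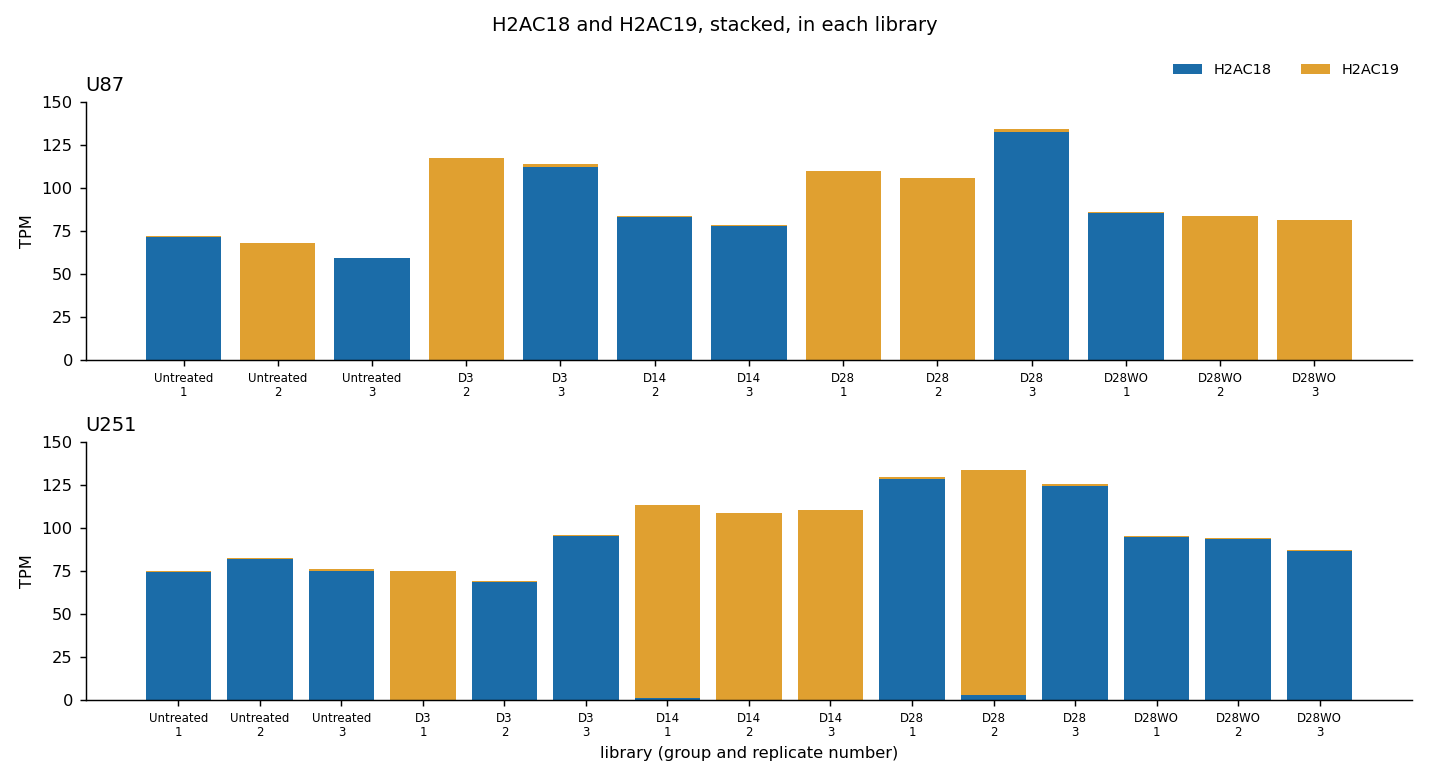
TPM of H2AC18 and H2AC19 stacked in each library of U87 (top) and U251 (bottom), labelled by group and replicate number. In U87 Untreated, D3, D28 and D28WO and in U251 D3 and D28 the copy that holds the TPM differs between replicates, while in U251 D14 it is H2AC19 in all 3 libraries (109 to 112 TPM).

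As a sum, H2AC18 and H2AC19 in U87 were 72.0, 68.2 and 59.5 TPM in Untreated, 117 and 114 TPM in D3, 83.9 and 78.5 TPM in D14, 110, 106 and 134 TPM in D28 and 86.2, 83.7 and 81.5 TPM in D28WO. All treated libraries lay above the Untreated ones. The log2 difference was 0.79 ± 0.11 at D3 (limma adjusted p = 0.000644) and 0.80 ± 0.10 at D28 (0.000182), below the fold threshold.

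Of 17 tested H2B genes in U87, 4 rose at D3 (5.85% of all genes), none at D14 (1.89%) and 5 at D28 (6.77%). In U87 D28WO 2 rose and 1 fell, against 12.8% and 2.12% of all genes. Of 15 tested H2B genes in U251, 3 rose at D3 (9.72%), 10 at D14 (4.72%), 10 at D28 (11.9%) and 1 in D28WO (4.07%). H2BC21 encodes H2B from a transcript annotated without a compact form. In U87 it was 5.37, 4.41 and 4.48 TPM in Untreated, 19.9 and 22.4 TPM in D3, 9.68 and 9.24 TPM in D14, 18.3, 17.1 and 18.3 TPM in D28 and 13.5, 14.3 and 14.5 TPM in D28WO. No U87 group overlapped another, and the order from low to high was Untreated, D14, D28WO, D28 and D3. H2BC21 rose by 1.94 ± 0.15 at D3 (limma adjusted p = 5.26e-06), 1.72 ± 0.13 at D28 (3.9e-06) and 1.40 ± 0.13 in D28WO (1.03e-05), the last falling to 0.85 under quantile normalization. In U251 the same gene moved less, from 29.9, 27.4 and 25.4 TPM in Untreated to 40.3, 43.9 and 42.4 TPM at D28, and passed no threshold.

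H2BC4, the divergent neighbour of H2AC6, was 13.8, 11 and 9.53 TPM in Untreated U87 cells, 22.9 and 31.3 TPM in D3, 20.4 and 18.6 TPM in D14, 30.9, 26.8 and 22.0 TPM in D28 and 16.3, 20.04 and 15.8 TPM in D28WO. All treated libraries lay above Untreated, and the rise passed the threshold at D3 (1.18 ± 0.20, limma adjusted p = 0.00265; 0.96 without D3 replicate 3) and D28 (1.15 ± 0.18, 0.00102), in both cases under 1 with quantile or median-ratio scaling. In U251, H2BC4 was 10.6, 11.7 and 2.62 TPM in Untreated, 20.4, 20.4 and 16.6 TPM in D3, 36.4, 33.3 and 30.5 TPM in D14, 49.7, 47.3 and 44.1 TPM in D28 and 16, 18.2 and 12 TPM in D28WO. Here the 3 groups on continuous IFN-γ stood in order of time with no overlap, and D28WO lay just above Untreated. The rise was 2.08 ± 0.35 at D14 (limma adjusted p = 0.000816) and 2.56 ± 0.35 at D28 (4.67e-05), and D28WO was lower than D28 by -1.57 ± 0.35 (0.00377), all held without any 1 library. At U251 D3 the rise of 1.31 ± 0.35 (limma adjusted p = 0.00789) was 0.72 without Untreated replicate 3.

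H2BC5 and H2BC12 were the most abundant H2B genes. H2BC5 in U251 was 30.9, 34.2 and 25.1 TPM in Untreated, 61.9, 60.5 and 64.8 TPM in D14 and 73.7, 76.8 and 69.0 TPM in D28, a rise at D28 of 1.27 ± 0.10 (limma adjusted p = 2.01e-07). In U87 it rose by 1.01 at D3 and at D28, close to the threshold, and lost the call in 4 of the omissions of 1 library each time, with values from 0.91 to 1.03 at D3 and with a lowest value of 0.91 at D28, and it fell short of 1 under quantile and median-ratio scaling in both comparisons (0.70 and 0.82 at D3, 0.70 and 0.83 at D28). Those were the omissions of Untreated replicate 2 or 3 in both comparisons, of either D3 library and of D28 replicate 2 or 3. H2BC12 was 41.0, 47.8 and 48.2 TPM in Untreated U251 cells and 89.1, 89.8 and 107 TPM at D28 (1.04 ± 0.10, limma adjusted p = 1.52e-06), under 1 without Untreated replicate 1 (0.97) or D28 replicate 3 (0.96) and under median-ratio scaling (0.92). In U87, H2BC12 did not pass the threshold.

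Lower H2B genes of U251 rose by more. H2BC8 was 0.980, 1.08 and 2.59 TPM in Untreated and 12.7, 17.4 and 14.4 TPM in D14 (2.68 ± 0.32, limma adjusted p = 5.6e-05). H2BC15 was 2.35, 0.523 and 1.08 TPM in Untreated and 14.4, 13.6 and 10.7 TPM in D28 (2.65 ± 0.27, limma adjusted p = 3.41e-06), and fell back to 2.42, 4.14 and 2.15 TPM in D28WO. H2BC17 was at most 1.45 TPM in Untreated and 3.77 TPM or more in every treated U251 library, and was called in all 4 comparisons. These 3 genes kept the calls just named without any 1 library. In U87, H2BC8 lay above Untreated in every D3, D14 and D28 library (8.06 to 17 TPM against 2.61 to 4.02 TPM) and was at 0, 3.10 and 4.53 TPM in D28WO. Its fall from D28 to D28WO (-2.01 ± 0.53, limma adjusted p = 0.0217) lost the call without D28 replicate 2, at -1.68 (adjusted p = 0.0883). H2BC7 fell in U87 D28WO to 1.03, 0 and 0 TPM, from 4.24, 1.58 and 1.45 TPM in Untreated (-1.34 ± 0.38, limma adjusted p = 0.0148), and lost that call without Untreated replicate 1 (-0.99) or D28WO replicate 2 or 3 (-1.17).

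H3 forms the centre of the nucleosome with H4, and its genes held the least RNA of the core classes. The H3 sum in U87 was 24.8, 32.2 and 17.2 TPM in Untreated, 26.3 and 39.2 TPM in D3, 36.7 and 35.5 TPM in D14, 26.6, 35.8 and 36.0 TPM in D28 and 18.5, 29.0 and 22.5 TPM in D28WO, with D14 alone above every Untreated library. In U251 it was 26.4, 20.4 and 21.3 TPM in Untreated, 33.0, 21.5 and 42.5 TPM in D3, 65.0, 61.8 and 62.7 TPM in D14, 49.97, 46.5 and 56.0 TPM in D28 and 29.7, 32.1 and 29.7 TPM in D28WO. The D14 sum was 2.78 times that of Untreated, the largest class ratio in either line.

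Single H3 genes were low, and several started from 0. H3C2 was listed at 0 in all Untreated U87 libraries, at 2.03 and 2.02 TPM in D3, 3.15 and 2.85 TPM in D14, 3.13, 2.56 and 3.14 TPM in D28 and 1.72, 0 and 0.820 TPM in D28WO. It passed the threshold at D3 and D14 (limma adjusted p = 0.0125 and 0.0139) and at D28 (0.00141), and the call at D3 was lost without either D3 library (adjusted p up to 0.0799) and that at D14 without either D14 library (adjusted p up to 0.105). In U251, H3C1 was listed at 0 in every Untreated, D3 and D28WO library and at 2.33, 2.12 and 3.52 TPM in D14 (limma adjusted p = 0.00124), and H3C12 at 0 in Untreated and D28WO and above 0 in every D3, D14 and D28 library. H3C6, without a recognised stem-loop, came after H3C10 among the H3 genes of U251 by mean TPM and passed no threshold there. It was 10.1, 9.15 and 7.62 TPM in Untreated and 5.08, 6.88 and 6.59 TPM in D3. The sum of H3C14 and H3C15 was 2.58, 4.75 and 4.56 TPM in Untreated U251 cells and 14.3, 19.5 and 24.6 TPM at D28 (log2 difference 2.04 ± 0.80, limma adjusted p = 0.0559).

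Among H4 genes, H4C8 rose in both lines. In U251 it was 6.81, 6.98 and 4.33 TPM in Untreated, 23.2, 23.4 and 20.01 TPM in D3, 36.5, 34.5 and 35.5 TPM in D14, 41.8, 43.9 and 41.1 TPM in D28 and 10.6, 14.7 and 16 TPM in D28WO. The groups did not overlap, and rose in order of time on IFN-γ, with D28WO between Untreated and D3. H4C8 rose by 1.74 ± 0.16 at D3 (limma adjusted p = 1.51e-06), 2.40 ± 0.16 at D14 (2.56e-07), 2.64 ± 0.16 at D28 (2.16e-08) and 1.07 ± 0.16 in D28WO (0.000206; 0.89 without Untreated replicate 3, 0.96 without D28WO replicate 3 and 0.99 under quantile normalization), and was lower in D28WO than in D28 by -1.57 ± 0.16 (1.01e-05). In U87, H4C8 was 1.17, 1.22 and 2.17 TPM in Untreated, 6.88 and 13.3 TPM in D3, 2.90 and 6.78 TPM in D14, 10.6, 7.35 and 5.15 TPM in D28 and 7.69, 6.68 and 5.29 TPM in D28WO. All treated libraries lay above Untreated, with rises of 2.10 ± 0.38 at D3 (limma adjusted p = 0.00405; 1.67 with an adjusted p = 0.0509 without D3 replicate 3), 1.76 ± 0.34 at D28 (0.00405) and 1.60 ± 0.34 in D28WO (0.00289).

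H4C14 and H4C15, the most abundant H4 genes, were taken as a sum. In U251 it was 51.1, 62.0 and 57.5 TPM in Untreated, 101, 95.2 and 107 TPM in D3, 84.3, 105 and 89.0 TPM in D14, 127, 113 and 120 TPM in D28 and 110, 126 and 106 TPM in D28WO, so that all treated libraries lay above Untreated. The log2 difference passed 1 at D28 only (1.07 ± 0.10, limma adjusted p = 9.69e-07) and was 0.99 ± 0.10 in D28WO (3.43e-06). In U87 the sum was 11.7, 31.4 and 16.6 TPM in Untreated, 42.6 and 43.8 TPM in D3, 14.7 and 21 TPM in D14, 43.3, 26.3 and 32.0 TPM in D28 and 48.4, 63.5 and 40.2 TPM in D28WO. It was higher at D3 (1.19 ± 0.34, limma adjusted p = 0.0341) and in D28WO (1.39 ± 0.30, 0.00319). Both D14 and D28 overlapped Untreated, and the D28 difference was not called (0.82 ± 0.30, limma adjusted p = 0.0712). H4C4 ran the other way in U87, from 2.21, 2.47 and 1.14 TPM in Untreated to 0 in all D28WO libraries (limma adjusted p = 0.0197), a call lost without Untreated replicate 1 or 2 or D28WO replicate 1 (adjusted p up to 0.0615).

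Extended and compact genes differed most plainly in U87 D28WO. The extended genes summed to 122, 114 and 89.3 TPM in Untreated U87 cells, 257 and 280 TPM in D3, 166 and 161 TPM in D14, 262, 245 and 242 TPM in D28 and 232, 257 and 229 TPM in D28WO. The compact genes summed to 286, 315 and 249 TPM, 407 and 487 TPM, 387 and 374 TPM, 372, 459 and 425 TPM, and 274, 273 and 294 TPM in the same order. In D28WO the extended sum stayed near its D28 level while the compact sum lay within the Untreated range, and the extended share of all histone TPM went from 27.7% in Untreated to 46.0%. Of the 16 tested extended genes, 16 had a positive fold change at D3 and D28 and 15 in D28WO, and 6 rose there. Of the 45 compact genes, 14 were positive in D28WO, none rose and 2 fell, against 12.8% of all genes that rose and 2.12% that fell. The split of calls in D28WO depended on scaling, with 2 extended genes up and 11 compact genes down under quantile normalization (5.81% and 5.35% of all genes) and 3 up and 5 down under median-ratio scaling (9.5% and 3.85%). The median log2 fold change in U87 was 1.06, 0.41, 1.02 and 0.93 for extended and 0.53, 0.45, 0.25 and -0.34 for compact genes at D3, D14, D28 and D28WO. These medians are descriptions, and the difference between the sets was not tested.

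**Figure D5:**
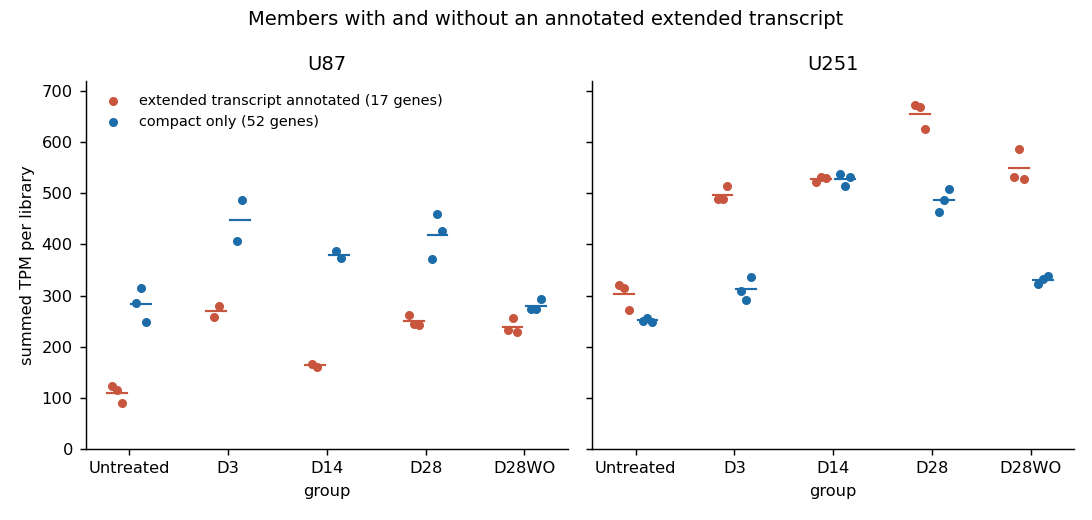
Summed TPM in each library of the 17 genes with an annotated extended transcript and of the 52 compact genes, by group. U87 is on the left and U251 on the right, and bars are group means. In U87 D28WO the compact sum (273 to 294 TPM) lies in the Untreated range while the extended sum (229 to 257 TPM) does not.

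In U251 both sets were higher in every treated group. The extended genes summed to 320, 316 and 271 TPM in Untreated, 490, 489 and 514 TPM in D3, 523, 532 and 529 TPM in D14, 673, 669 and 627 TPM in D28 and 532, 588 and 528 TPM in D28WO, and the compact genes to 250, 257 and 249 TPM, 309, 291 and 337 TPM, 538, 514 and 532 TPM, 463, 488 and 508 TPM, and 323, 332 and 339 TPM. The compact sum was highest at D14 with no overlap with another group, and the extended sum was highest at D28. At D14, 7 of 16 tested extended and 17 of 40 compact genes rose (4.72% of all genes), with medians of 0.89 and 1.19, and at D28 8 and 12 rose (11.9%), with medians of 0.99 and 0.86. Under quantile normalization the D28 counts were 7 and 4 (6.63% of all genes). At D3, 4 extended and 3 compact genes rose (9.72%), with medians of 0.70 and 0.35, and in D28WO 3 and 3 (4.07%), with medians of 0.75 and 0.37. The extended share of all histone TPM was 52.1% to 56.2% in Untreated U251 libraries, 60.4% to 62.7% in D3, 49.3% to 50.9% in D14, 55.2% to 59.3% in D28 and 60.9% to 63.9% in D28WO, so that D3 and D28WO lay above Untreated in U251 as well, D14 lay below it and D28 overlapped it.

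In the libraries labelled D28WO, where IRF1 was at the D28 level, histone genes were called lower than at D28 in both lines and none was called higher. In U87, 6 fell, against 2.42% of all genes that fell and 3.11% that rose, and all 6 were compact. Among them H2AC16 was 7.15, 3.90 and 8.37 TPM in D28 and 0.984, 0 and 0.937 TPM in D28WO (-2.20 ± 0.63, limma adjusted p = 0.0301), a call lost in 5 of the 6 omissions of 1 of these libraries, with adjusted p up to 0.12. H2BC7 (-1.94 ± 0.38, limma adjusted p = 0.00509) kept the call in all of them. The count was 3 without D28 replicate 1, D28WO replicate 1 or D28WO replicate 2. In U251, 8 fell, against 8.14% of all genes that fell and 1.12% that rose. Of these 8, 4 were among the 16 tested extended genes and 4 among the 40 compact ones. H2BC18 (-1.87 ± 0.49, limma adjusted p = 0.0108), H2BC15 (-1.86 ± 0.27, 0.000188) and H2AC17 (-1.73 ± 0.47, 0.0135) led. H2BC18 lost the call without D28 replicate 2 (adjusted p = 0.0530) and H2AC17 without D28 replicate 2 or 3 or D28WO replicate 3 (adjusted p up to 0.0619). H2BC15, H2BC4 and H4C8 kept the call without any 1 library, and the count was 5 without D28 replicate 2 or D28WO replicate 3. Both lines called H2BC8 and H4C5, which is 33.3% of the U87 and 25% of the U251 calls, against 28.6% and 7.95% over all genes tested in both lines, of which 0.615% were called lower in both. Each of these 2 genes lost the call in each line without at least 1 library, and both lost it in U251 under quantile normalization.

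Calls were shared between the lines in part. At D28, 6 genes rose in both lines, which is 60% of the U87 and 30% of the U251 calls, H2AC6, H2BC4, H2BC5 and H4C8 among them. Of the 6, 3 (H2AC6, H2BC4 and H4C8) kept the call in both lines without any 1 library, and 2 (H2AC6 and H4C8) kept it under quantile normalization. Under median-ratio scaling H2BC5 (0.83) and H2BC4 (0.97) in U87 and H2AC6 in U251 (0.96) fell short of 1. H2AC8, H2BC13 and H2BC5 lost the U87 call without Untreated replicate 3, D28 replicate 2 or D28 replicate 3. At D3 the shared calls were H2BC4 and H4C8 (28.6% of each list), in D28WO H2AC6, H4C8 and the single copy H4C15 (50% of each), and at D14 none. Both D3 calls were lost in U87 without D3 replicate 3, and quantile normalization kept that of H4C8 only. In D28WO only H2AC6 kept the call in both lines under the omissions and quantile normalization. The H4C15 call was lost in U87 in 3 of 6 omissions, and the sum with its identical copy was not called in U251 D28WO. Of the 20473 genes tested in both lines, 2.67% were called higher in both at D28, 1.88% at D3, 2.17% in D28WO and 0.215% at D14, which is 41.1% of the U87 and 23.2% of the U251 calls among these genes at D28, 33.3% and 19.8% at D3, 16.9% and 52% in D28WO and 11.8% and 4.64% at D14. The shared share of the histone calls was thus above that of all genes in both lines at D28, below it in U87 and above it in U251 at D3, and above it in U87 and below it in U251 in D28WO. These comparisons share their Untreated libraries within a line but no library between lines.

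Genes that make, process and carry histones were described from lists. Of 24 genes of histone mRNA synthesis and processing, none passed the threshold against Untreated in U87 at D3, D14 or D28, and in U251 ZNF473, a U7-particle zinc finger protein, rose at D3 (1.20 ± 0.11, limma adjusted p = 1.15e-06). SLBP was 161, 168 and 160 TPM in Untreated U87 cells and 98.7, 90.7 and 101 TPM in D28WO (log2 fold change -0.75, limma adjusted p = 6.6e-06, short of the fold threshold). NPAT lay between 15.4 and 27.3 TPM over all U87 libraries. In D28WO, CCNE2, a cyclin that starts S phase, fell in U87 from 62.8, 58.0 and 60.1 TPM to 6.85, 10.4 and 21.9 TPM (-2.27 ± 0.29, limma adjusted p = 9.66e-05) and in U251 from 49.8, 56.9 and 44.8 TPM to 5.57, 10.4 and 7.26 TPM (-2.59 ± 0.23, 1.21e-06). E2F1, a driver of S phase transcription, fell in D28WO by 1.24 in U87 and by 1.11 in U251. The other genes of this list called there were HINFP, an H4 promoter factor, higher in U87, and CCNE1 lower in U251.

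S phase genes moved with the D28WO group. Of 43 such genes, none passed the threshold against Untreated at D3, D14 or D28 in either line, while in D28WO 19 fell in U87 and 10 in U251 (2.12% and 3.38% of all genes fell) and none rose, with median log2 fold changes of -0.91 and -0.69. By adjusted p alone, without the fold threshold, 16 of the 43 were higher and 7 lower in U251 at D3 (24.9% and 16% of all genes), 22 higher and none lower at D14 (13.8% and 7.31%), and 11 higher and 7 lower at D28 (25.9% and 14.7%), so that the shares at D28 lay near the background. In U87 none was higher and 1, 0 and 6 were lower (4.28%, 1.02% and 6.55% of all genes). In these D28WO libraries the compact histone sum of U87 lay within its Untreated range and that of U251 lay above it, as given above. Whether the share of cells in S phase took part in any histone difference was not tested.

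Of 17 histone chaperones, ASF1B, which hands new H3 and H4 to the assembly factors, fell in U87 D28WO from 123, 115 and 114 TPM to 46.7, 52.5 and 58.9 TPM (-1.14 ± 0.09, limma adjusted p = 3.53e-06). It was the only chaperone called against Untreated in either line. CHAF1A, a subunit of the assembly factor CAF-1, went from 65.6, 70.9 and 69.7 TPM to 30.8, 36.4 and 49.0 TPM there (-0.84, limma adjusted p = 0.00325), short of the fold threshold, and fell between D28 and D28WO (-1.11 ± 0.18, 0.00184).

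Replication-independent histones, made outside S phase from polyadenylated mRNA, changed in few members. H2AJ, an H2A variant, rose in U87 at D14 and D28 (1.39 ± 0.16 at D28, limma adjusted p = 0.000121), and MACROH2A2, a large H2A variant of silent chromatin, in D28WO. In U251 limma called none of the 10 genes tested in any of the 4 comparisons with Untreated, where from 4 to 6 of them had an unadjusted p under 0.05. H3-3B, the main source of the replacement histone H3.3, was 394, 339 and 452 TPM in Untreated U87 cells and 300 and 311 TPM in D3 (limma adjusted p = 0.0561), and was not called in any comparison of either line.

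By a rule of likeness to the summed histone TPM within a line, the nearest companion genes were H2AJ (Pearson r = 0.77) and ATRX (0.69) over the 13 U87 libraries and CENPA (0.82) and ASF1A (0.77) over the 15 U251 libraries. In the other line these 4 genes had values of opposite sign, -0.09 for H2AJ and -0.17 for ATRX in U251 and -0.39 for CENPA and -0.67 for ASF1A in U87. Other companion genes, chosen after their values were seen, kept their sign in U87 and U251, such as CABIN1 (0.65 and 0.61), TUT7 (0.55 and 0.67), H3-3A (-0.61 and -0.73) and NAP1L1 (-0.78 and -0.84). Among the S phase genes the values ran from 0.61 (RAD51AP1) to -0.38 (MRPL36) in U251. In U87 they ran from 0.53 (CASP8AP2) to -0.57 (TIPIN). The libraries share their groups and a TPM total, so all these values describe the tables only.

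Genes that should be silent in glioma cells served as a measure of background. The summed TPM of 405 olfactory receptor genes was 18.9 to 35.4 in Untreated U87 libraries and 34.7 to 63.7 in treated ones, and 27.8 to 48.3 in Untreated U251 libraries and 33.0 to 70.5 in treated ones. The number of genes above 0 was 24223 to 25459 in Untreated and 26096 to 28649 in treated U87 libraries, and 24450 to 27187 in Untreated and 25633 to 30246 in treated U251 libraries, where D3 and D28WO overlapped Untreated. Subtracting the mean TPM per olfactory receptor gene of each library left every U87 histone count as it was. In U251 it gave 7 genes up in place of 6 in D28WO. From D14 to D28 in U251 it gave 2 up in place of 1. The amount subtracted was small beside the 1 TPM added before taking logs, so it could hardly move a call. Whether this background took part in the low-level calls, such as H3C2 and H2BC17, was therefore not tested.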

How the data were processed

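Total RNA was extracted for sequencing, and whether poly(A) RNA was then selected is not given in the sources used here. The authors deposited 1 table of TPM per line, aligned to GRCh38 per the labels. The submitters' processing notes name FastQC, Trim Galore, STAR, featureCounts and edgeR, and how the TPM were computed is not given in the sources used here. TPM sum to the same total in every library, so depth and counting error are unknown, and near-identical paralogs can share reads. A pair of U87 columns (2) that share a name was not used.

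Values were tested as log2(TPM + 1) in R 4.3.3 with limma 3.58.1 (trended empirical Bayes, all 5 groups of a line in 1 fit, a filter on low values at a mean of 0.5 TPM that left 22918 genes in U87 and 23667 in U251), with Benjamini-Hochberg adjustment over all genes, for 7 comparisons per line. The script was tested on simulated data. The lone-sample fits that leave out a U87 D3 or D14 library assume that the remaining sample varies like the other groups. P-values measure the spread between these samples, whose cultures are of 1 line each and, per the methods, were not authenticated anew. Annotation is GENCODE 44, promoters are RefSeq windows and S phase genes are the list of Seurat 5.3.0; Python 3.11.15 was used for sums and sequences.

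The genes named were, per class, the 3 highest by mean TPM in each line, the 3 largest rises and falls per comparison among called genes, genes at 0 throughout, and companion genes past the threshold, with SLBP, NPAT, H3-3B, CHAF1A, ASF1B and IRF1 in any case. A few items of the lists are not reported here. Further genes named where a count is small were chosen after their values were seen. The members and lists were chosen with earlier results of these data known. Alternatives were other pseudocounts, filters, scalings, fits and omissions, and 2 added after seeing the data: identical copies summed and an olfactory receptor background subtracted.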

Additional observations from a re-analysis of the deposited data

Results flagged for a closer look

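For 5 genes, every library of a treated group lay on one side of Untreated in U87 and on the other side in U251. The differences between the lines were not tested, since the lines were normalized separately. Values are differences of log2(mean TPM + 1) from Untreated. H2AC17 at D3 was 0.99 in U87, where limma did not call it (adjusted p = 0.157), and -1.86 in U251, where it did (0.00442). H3C6 at D3 was 0.91 in U87 and -0.47 in U251, and passed the limma threshold in neither line. H4C4 at D3 was -1.56 in U87, where both D3 libraries were listed at 0, and 1.59 in U251, where all Untreated libraries were listed at 0. Limma did not call it in U87 (adjusted p = 0.0642), and the U251 call (0.0326) was lost in all 6 omissions of 1 library. H3C4 at D14 was -1.63 in U87 and 2.77 in U251 and was called in neither line (limma adjusted p = 0.0637 and 0.0764). H2AC18 at D14 was 0.87 in U87 (not called, limma adjusted p = 0.655) and -5.73 in U251, where its identical copy H2AC19 held the TPM of the pair. The sum of both copies was higher at D14 in each line, at a log2 difference of 0.29 (limma adjusted p = 0.143) in U87 and 0.50 (0.00175) in U251.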

How the results depend on the processing

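Every call rests on 2 or 3 libraries per group with unknown depth, so calls of genes near 0 TPM are the least secure, and the causes of the changes below were not tested. Subtracting the olfactory receptor background and a filter at a mean of 1 TPM changed none of the named calls they could be applied to (120 and 114), while 37 of 120 were lost under quantile normalization, 16 under median-ratio scaling, 28 without a filter, 15 with a pseudocount of 0.1, 41 with only the 2 compared groups fitted and 6 with identical copies summed, where H2AC18 in U251 at D14 also turned from -5.84 to 0.50. All-gene medians near 0.2 moved to about 0 under quantile normalization.

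The count of histone genes past the threshold in U87 was 3 at D3 and 0 from D3 to D14 with only the 2 compared groups fitted, 1 at D14 under quantile or median-ratio scaling and 4 by adjusted p alone, 6 at D28 without a filter and 5 under quantile normalization, and 13 in D28WO under quantile normalization. From D14 to D28 it was 1 without a filter or under quantile normalization, and from D28 to D28WO 2 with a pseudocount of 0.1 or without a filter and 3 with only the compared groups. In U251 it was 11 at D28 under quantile normalization, 13 at D3 and 12 in D28WO by adjusted p alone. From D14 to D28 it was 1 without a filter, with only the compared groups or with copies summed and 7 by adjusted p alone, and from D28 to D28WO 5 under quantile normalization and 15 by adjusted p alone. Leaving out 1 library gave 2 to 10, 0 to 4, 5 to 11 and 5 to 9 for D3, D14, D28 and D28WO in U87, then 1 to 2, 0 to 2 and 3 to 4 for D14 against D3, D28 against D14 and D28WO against D28. In U251 it gave 6 to 10, 17 to 24, 16 to 19, 3 to 10, 8 to 11, 1 to 3 and 5 to 8 in the same order. Over the named calls, 500 omissions kept and 203 lost the call.

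The log2 ratio of the summed TPM in U87 was, under quantile and median-ratio scaling, 0.53 and 0.68 at D3, 0.19 and 0.30 at D14, 0.43 and 0.58 at D28 and 0.00154 and 0.18 in D28WO, and without the most abundant gene of each class 0.95 at D28 and 0.56 in D28WO. In U251 it was 0.43 and 0.44 at D3, 0.81 and 0.84 at D14, and 0.91 and 0.92 at D28 under the 2 scalings, and 0.43, 1.04 and 0.55 at D3, D14 and D28WO without the most abundant genes. The U87 class ratios that turned were H1 at D3 (-0.33) and D28 (-0.49) without H1-2, H1 in D28WO under quantile (-0.091) and median-ratio scaling (-0.020) and without H1-2 (-0.84), H2B in D28WO (-0.20), H3 at D3 (-0.20) and H3 at D28 (-0.17) under quantile normalization, and H3 in D28WO, which ran from -0.29 without Untreated replicate 3 to 0.15 without Untreated replicate 2 and was 0.06 without D28WO replicate 1. H1 in U251 at D3 ran from -0.16 without D3 replicate 3 to 0.18 without D3 replicate 2 and was 0.01 without Untreated replicate 1.

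Replicate numbers did not pair the samples (same-number correlations of deviations from -0.058 to 0.048). With the replicate number as a block, 7 genes passed in U87 at D3, 3 at D14, 12 at D28 and 9 in D28WO, and 8, 26, 20 and 5 in U251, no count moving beyond 1.5 times.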
